A study of Glycine max with 16 samples.

Results

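Binding of LEAFY COTYLEDON1 (LEC1) to the chromatin of early maturation soybean embryos was mapped with a pair of antibodies, one raised against recombinant GST-GmLEC1 protein and one against a GmLEC1 peptide. The peak list of each antibody was compared with that of the other. The anti-recombinant list held 55140 peaks and the anti-peptide list 49566, together 104706 of the 220697 peaks in the 4 lists of the study, which also covered the cotyledon stage (COT) and mid-maturation (MM) with the anti-recombinant antibody. All embryos came from the cultivar Williams 82, grown in a greenhouse, and early maturation (EM) embryos were dissected from seeds of 6 to 7 mm. No mutation, transgene or treatment is named in the labels. The anti-recombinant ChIP group and the anti-peptide ChIP group had 2 biological replicates each, and each had its own group of 2 libraries of total chromatin (input), for which no antibody was used. The same 1% formaldehyde fixation for 10 minutes, sonication to fragments of 100 to 500 bp and 3 ug of antibody were used for both.

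LEC1 is the NF-YB-type subunit of a nuclear factor Y complex, a trimeric transcription factor known for binding CCAAT boxes. In Arabidopsis it is required for normal embryo development, and it is known in seeds for acting on genes of storage reserve accumulation. The complex touches DNA through several subunits, so chromatin immunoprecipitation with a LEC1 antibody also recovers sites to which LEC1 is held by its partners. RefSeq names 2 soybean genes for LEC1, LEC1-A and LEC1-B (assembly Glycine_max_v4.0). Which of their products each antibody recognises was not tested in these data. A peak found with both antibodies rests on a pair of different reagents, whereas a peak found with one of them rests on that reagent alone.

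One list was available for each antibody, so the spread between replicates is unknown, and no test between the antibodies was made. Antibody and experiment cannot be told apart. The files hold no read totals, which leaves the depth behind each list unknown, and a longer list is no measure of more LEC1. A score that the authors gave to each peak was used only to order the peaks of its own list. "Place" below means the order by score, from place 1 for the highest. A peak was taken as shared when at least 1 bp of it was overlapped by a peak of the other antibody, and as a single-antibody peak otherwise. Exact (Clopper-Pearson) 95% intervals are given in brackets for shares; they cover counting error only. Peaks are listed on a 50 bp grid in the build named Gmax275 in the peak names, and positions are 1-based. The gene annotation of that build was not used here, so sites are named by position.

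Most sites were found with both antibodies. Of the 55140 anti-recombinant peaks, 40817 or 74.0% (73.7 to 74.4) were overlapped by an anti-peptide peak, and 14323 were not. Of the 49566 anti-peptide peaks, 40959 or 82.6% (82.3 to 82.97) were overlapped by an anti-recombinant peak, and 8607 were not. The shared anti-recombinant peaks covered 16.2 Mb and the single-antibody ones 2.99 Mb. The shared anti-peptide peaks covered 15.5 Mb and the single-antibody ones 1.65 Mb. The single-antibody peaks were thus 26.0% of the anti-recombinant list and 17.4% of the anti-peptide list by number.

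Sharing declined with score in both lists, and earlier in the anti-recombinant list. Each list was cut by score into 10 bins of equal size, bin 1 holding the highest scores. In bin 1 98.6% of anti-recombinant peaks were shared, with 78 exceptions among 5514, and in bin 2 96.4%. In the anti-peptide list all 4956 peaks of bin 1 and all 4957 of bin 2 were shared, and 10 of 4956 in bin 3 were not. In bin 5 81.4% (80.4 to 82.5) of anti-recombinant peaks and 95.9% (95.3 to 96.4) of anti-peptide peaks were shared. In bin 7 the shares were 63.9 and 81.7%, in the same order. In bin 10, 40.2% (38.9 to 41.5) of anti-recombinant peaks were shared, against 36.4% (35.1 to 37.8) of anti-peptide peaks. This order of the lists in bin 10 held by score only: with bins cut by the numbers in the authors' peak names it was 39.3% of anti-recombinant and 45.9% of anti-peptide peaks. The first anti-recombinant peak without an anti-peptide peak stood at place 413, whereas the first anti-peptide peak without an anti-recombinant peak stood at place 10744.

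**Figure D1:**
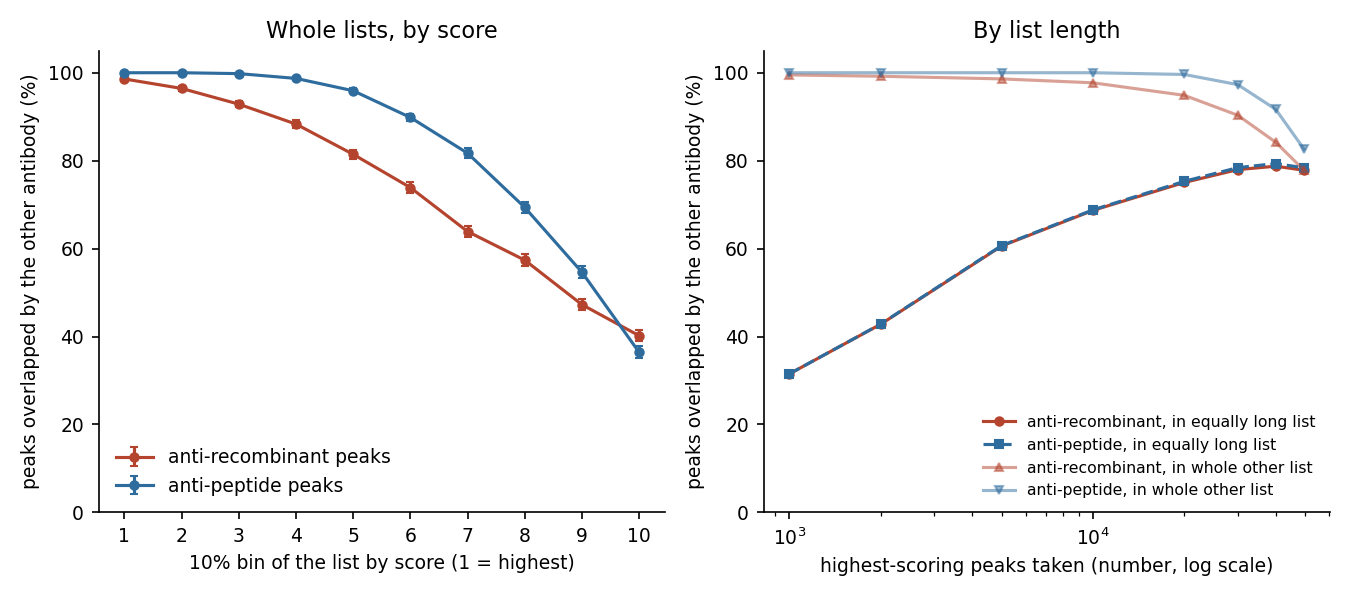
Left, percentage of the peaks of each antibody that the other antibody overlapped, by 10% bins of the list in order of score, with exact 95% intervals. Right, the same percentage for the highest-scoring peaks of each list (x, number of peaks on a log scale), looked up either in an equally long list or in the whole list of the other antibody. The anti-peptide share stays at 100% in bins 1 and 2, and the equally long lists give nearly one curve, with its top at 40000 peaks (78.7% for anti-recombinant and 79.3% for anti-peptide peaks). Most overlaps pair 1 peak with 1 peak, so at equal length both directions must lie close.

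With lists of equal length the directions nearly coincided. When the anti-recombinant list was shortened to its 49566 highest-scoring peaks, 38574 of them (77.8%, 77.5 to 78.2) had an anti-peptide peak, and 38851 anti-peptide peaks (78.4%, 78.0 to 78.7) had an anti-recombinant peak. Single-antibody peaks then numbered 10992 in the anti-recombinant list and 10715 in the anti-peptide list, a difference of 277. The 5574 anti-recombinant peaks removed in this way had a median width of 100 bp, and 40.2% of them had been shared. The 1000 highest-scoring peaks of either list coincided for 315 peaks (31.5%). Of the first 5000, 3029 anti-recombinant peaks (60.6%) had an anti-peptide partner within the first 5000, and of the first 10000, 6869 (68.7%) had one within the first 10000. Looked up in the whole anti-peptide list, which contains the shorter ones, 99.5% of the first 1000 anti-recombinant peaks had a partner. Among the first 20000 peaks, 1028 anti-recombinant peaks had no partner in the whole anti-peptide list, against 79 anti-peptide peaks without a partner in the whole anti-recombinant list. These sets were equally large, but the lists they were looked up in differed in length.

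Single-antibody peaks were narrow with either antibody. The single-antibody anti-recombinant peaks had a median width of 200 bp (quartiles 150 and 250 bp), and the shared ones 400 bp (250 and 500 bp). The single-antibody anti-peptide peaks had a median of 200 bp (quartiles 150 and 250 bp), and the shared ones 350 bp (250 and 450 bp). The medians differed, shared minus single-antibody, by 200 bp in the anti-recombinant list and 150 bp in the anti-peptide list. A narrow peak offers less sequence to overlap, so the rule for sharing itself favours wide peaks. Peaks of the smallest width, 100 bp, made up 20.8% of single-antibody and 3.41% of shared anti-recombinant peaks, and 21.7% of single-antibody and 3.34% of shared anti-peptide peaks. Peaks of 500 bp or more were rarely confined to one antibody: 175 of 11864 such anti-recombinant peaks and 75 of 10016 such anti-peptide peaks were without a partner.

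At each width from 100 to 650 bp the share was higher in the anti-peptide list. It was 31.8% (30.4 to 33.2) for anti-recombinant and 42.3% (40.6 to 44.1) for anti-peptide peaks of 100 bp. At 200 bp it was 52.1% for anti-recombinant and 67.3% for anti-peptide peaks, and at 300 bp 76.4 and 88.5%, in the same order. From 550 bp upwards both lists were at 98.6% or more. The anti-recombinant list was the longer of the pair, so the anti-peptide peaks had more peaks to meet. The part of list length in the difference at each width was not tested.

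Among peaks of equal width, score and sharing were related differently in the lists. Width and score went together in both, with a Spearman's rho across peaks of 0.854 in the anti-recombinant and 0.844 in the anti-peptide list. The peaks of each width were therefore divided into 3 equal groups by score. Of the anti-recombinant peaks of 100 bp, 27.1% (24.9 to 29.5) of the highest-scoring group were shared, 30.5% of the middle group and 37.8% (35.3 to 40.4) of the lowest-scoring group. Of the anti-peptide peaks of 100 bp, 63.3% (60.3 to 66.1) of the highest-scoring group were shared, 36.5% of the middle group and 27.2% (24.5 to 29.9) of the lowest-scoring group. At 200 bp the highest- and lowest-scoring groups were at 49.0 and 56.2% in the anti-recombinant list, and at 84.9 and 50.5% in the anti-peptide list. Over the 9 widths from 100 to 500 bp the highest-scoring group had a lower share than the lowest-scoring one at 4 widths of the anti-recombinant list and at 0 widths of the anti-peptide list. The 4 widths were the narrowest, 100 to 250 bp. At 300 bp the anti-recombinant shares were 79.3% in the highest- and 74.7% in the lowest-scoring group, and the anti-peptide shares 98.5 and 75.2%. No test of the difference between the lists was made.

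**Figure D2:**
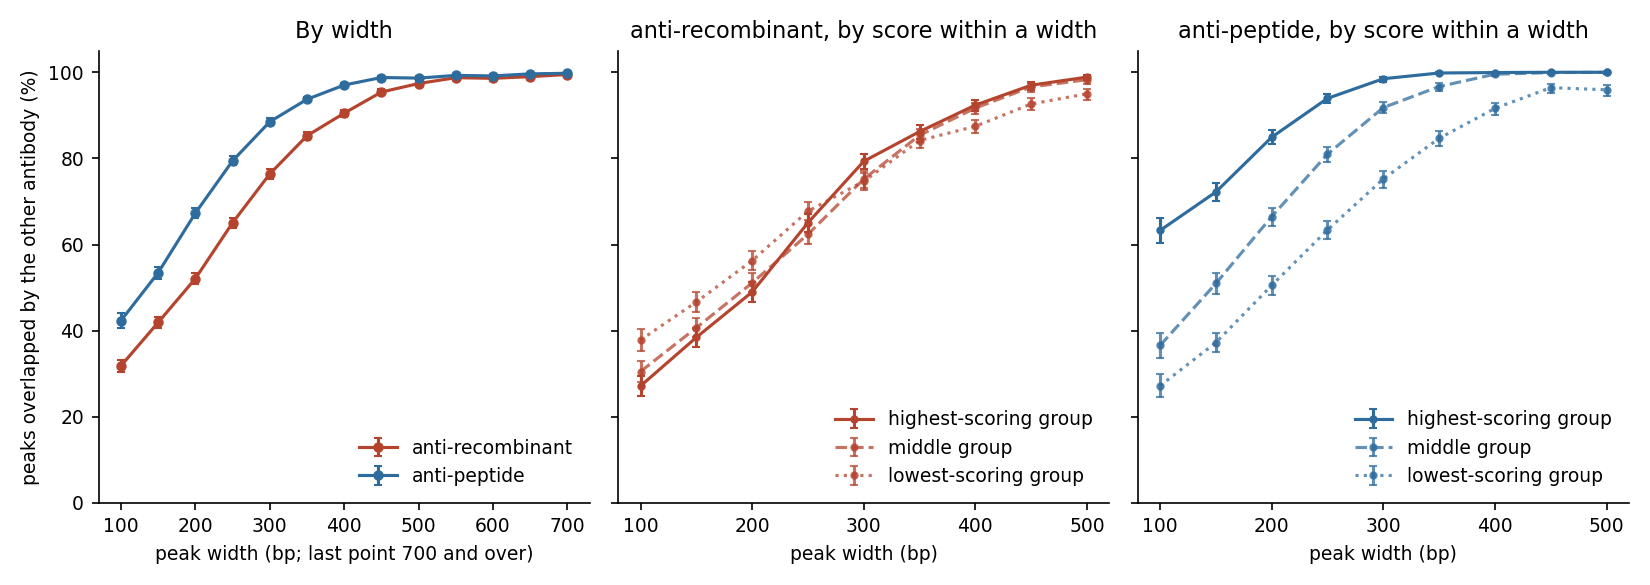
Percentage of peaks overlapped by the other antibody (y) against peak width in bp (x), with exact 95% intervals. Left, both lists, where the last point holds peaks of 700 bp and over; middle and right, the peaks of each width divided into 3 groups by score. The groups fan out in the anti-peptide list, from 27.2 to 63.3% at 100 bp, and cross near 250 bp in the anti-recombinant list.

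The numbers in the authors' peak names run in nearly the same order as the score in the anti-recombinant list, with Spearman's rho of 0.9996 and shifts of at most 4017 places. In the anti-peptide list rho was 0.9503, and 1899 peaks stood more than 10000 places earlier by score than by number, against 0 the other way. What the numbering is based on is not stated in the sources used here. Ordered by number instead, the first and last groups of 100 bp peaks were shared for 27.8 and 36.3% in the anti-recombinant list, and for 44.8 and 39.0% in the anti-peptide list. The gradient among the narrowest anti-peptide peaks was thus smaller by number than by score, in the same direction. The first group had the higher share at 9 of 9 widths in the anti-peptide list under either order.

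Where both antibodies found a site, they placed it alike. Overlaps of 1 peak with exactly 1 peak numbered 39279, which is 96.2% of the shared anti-recombinant and 95.9% of the shared anti-peptide peaks. The median distance between their midpoints was 25 bp (mean 44.7 ± 40.8 bp, SD over pairs), on a grid where 25 bp is the smallest step of a midpoint. In 7515 pairs (19.1%) the midpoints coincided, in 75.2% they were within 50 bp, and in 93.8% within 100 bp. An offset over 200 bp was found in 213 pairs, and the largest was 475 bp. The peaks of a pair had to overlap, which by itself limits how far apart their midpoints could lie. The anti-recombinant midpoint lay at the higher coordinate in 40.8% of pairs and at the lower in 40.1%. The mean signed offset, anti-recombinant minus anti-peptide, was 0.386 ± 60.6 bp (SD over pairs). Midpoints were closer for stronger peaks: 57.4% of pairs were within 25 bp in bin 1 of the anti-recombinant list and 43.9% in bin 10, and 59.6 and 43.7% in bins 1 and 10 of the anti-peptide list.

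In 75.2% of the 1-to-1 pairs the narrower peak lay wholly within the wider one or matched it. The anti-peptide peak lay inside the anti-recombinant peak in 15310 pairs (39.0%), and the anti-recombinant inside the anti-peptide peak in 11369 (28.9%). Both ends were identical in 2857 pairs (7.27%), and the remaining 9743 (24.8%) were staggered. The left ends matched in 26.7% of pairs and the right ends in 26.5%. The anti-recombinant peaks averaged 393 bp and the anti-peptide peaks 376 bp, a difference of 17.03 ± 128 bp (SD over pairs). The anti-recombinant peak was the wider in 46.6% of pairs, the anti-peptide peak in 35.9%, and 17.5% were of equal width. The excess was divided almost evenly between the ends: anti-recombinant minus anti-peptide, left ends averaged -8.13 bp and right ends 8.90 bp. In bin 1 of the anti-recombinant list its peaks averaged 587 bp, against 531 bp for their anti-peptide partners. In bin 1 of the anti-peptide list the anti-recombinant partners averaged 597 bp, against 588 bp for the anti-peptide peaks. The anti-recombinant peak was thus on average the wider of the pair in bin 1 of either list. It was on average the narrower in bins 7 to 10 of the anti-recombinant list, at 136 bp against 248 bp in bin 10. Anti-peptide peaks in bin 10 of their own list averaged 147 bp, against 230 bp for the anti-recombinant partners. Score and width went together in each list, so bins by score also sort the peaks of that list by width.

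**Figure D3:**
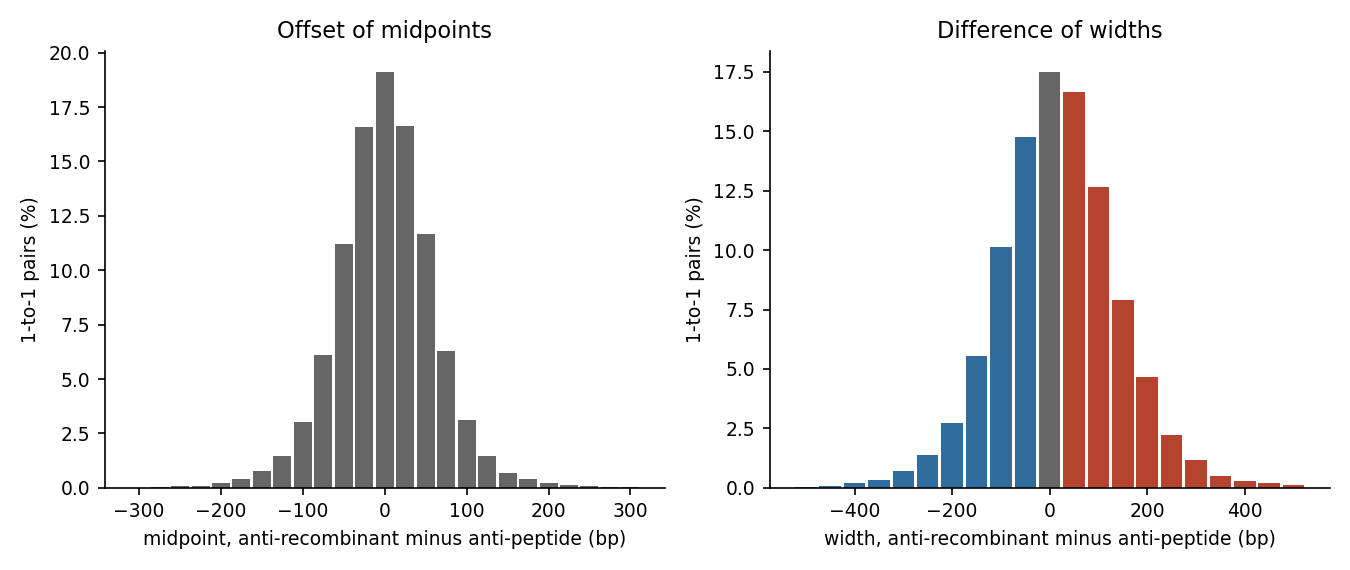
Percentage of the 39279 1-to-1 pairs (y) by the offset of their midpoints (left, x, bp, shown to 300 bp either way) and by the difference of their widths (right, x, bp, shown to 500 bp either way), both anti-recombinant minus anti-peptide. Offsets lie symmetrically about 0, and pairs with the wider anti-recombinant peak (right of 0) outnumber those with the wider anti-peptide peak, at 46.6 against 35.9%.

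A few wide peaks of one antibody overlapped several of the other. Of the anti-recombinant peaks, 614 overlapped 2 or more anti-peptide peaks, and these had a median width of 800 bp. Of the anti-peptide peaks, 469 overlapped 2 or more anti-recombinant peaks, with a median width of 750 bp. Whether the wide peak held the others wholly was not computed. The 3 widest peaks of the lists were the same sites and were found whole by both. The widest lay on chromosome 20 at 38286951 to 38289400 (2450 bp) with the anti-recombinant antibody and at 38287051 to 38289400 (2350 bp) with the anti-peptide antibody. The next lay on chromosome 1 at 3715051 to 3717350 with both antibodies, with identical ends and a width of 2300 bp. The third lay on chromosome 10 at 47753601 to 47755750 (2150 bp) in the anti-recombinant list and at 47753551 to 47755750 (2200 bp) in the anti-peptide list. The chromosome 20 site stood at place 3042 in the anti-recombinant and 3828 in the anti-peptide list, within bin 1 of both. The chromosome 1 site stood at places 9362 and 2556, and the chromosome 10 site at places 10546 and 7788, in the same order of lists.

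The places of shared sites were related but far from equal. Of the 5200 1-to-1 pairs in bin 1 of the anti-recombinant list, 3064 (58.9%) were in bin 1 of the anti-peptide list, and 2 in its bin 10. Of the 4752 pairs in bin 1 of the anti-peptide list, 64.5% were in bin 1 of the anti-recombinant list, and 0 in its bins 8 to 10. Over all pairs 25.04% stood in the same bin of both lists and 58.1% within 1 bin. The anti-recombinant peak stood 5 or more bins ahead in 1055 pairs, and the anti-peptide peak in 563.

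The 5 sites with the smallest sum of places lay on different chromosomes. On chromosome 12 the anti-recombinant peak at 6694501 to 6695250 was in place 1 and the anti-peptide peak at 6694501 to 6695400 in place 17. On chromosome 7 the anti-recombinant peak at 43809751 to 43810300 stood at place 16 and the anti-peptide peak at 43809751 to 43810200 at place 38. On chromosome 11 the anti-recombinant peak at 34290151 to 34290850 stood at place 26 and the anti-peptide peak at 34290101 to 34290850 at place 32. The other two were on chromosome 18 at 2064951 to 2065550 (places 24 and 74, anti-recombinant before anti-peptide) and on chromosome 13 at 20574851 to 20575550 (places 2 and 106, in the same order). Midpoints at these 5 sites were 25 to 75 bp apart.

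At other shared sites the antibodies differed widely in place. The largest gap in favour of the anti-recombinant antibody was on chromosome 9, where the peak at 43700651 to 43701100 (450 bp) was in place 1545 and the anti-peptide peak at 43700851 to 43701050 (200 bp) in place 44066. On chromosome 15 the anti-recombinant peak at 6733151 to 6733650 (500 bp) was in place 746, and the anti-peptide peak at 6733251 to 6733500 (250 bp) in place 41248. The other three of the 5 such sites, on chromosomes 15, 7 and 19, had anti-recombinant peaks of 400 to 550 bp over anti-peptide peaks of 100 bp. The largest gap in favour of the anti-peptide antibody was on chromosome 7, where the anti-recombinant peak at 41315551 to 41315750 (200 bp) was in place 53476 and the anti-peptide peak at 41315451 to 41315900 (450 bp) in place 7085. On chromosome 18 the anti-recombinant peak at 6299351 to 6299650 (300 bp) was in place 48745 and the anti-peptide peak at 6299201 to 6299700 (500 bp) in place 7404. At all 10 of these sites the antibody with the better place also had the wider peak, and midpoints were 0 to 100 bp apart. Width and score went together in both lists, so choosing sites by the gap of places favours this result for width. Each had an MM peak, as had 95.3% of all shared peaks in either list. The lists differ in length, and places are no measure of the amount bound.

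Few single-antibody peaks lay within 100 bp of a peak of the other antibody. A peak of the other antibody touched 343 of the 14323 single-antibody anti-recombinant peaks without overlapping, and 671 (4.68%) had one within 100 bp. Of the 8607 single-antibody anti-peptide peaks, 335 were touched and 664 (7.71%) had one within 100 bp. The median gap to the nearest peak of the other antibody was 2300 bp for the anti-recombinant peaks (quartiles 800 and 6200 bp) and 2150 bp for the anti-peptide peaks (quartiles 700 and 5800 bp). Within 1000 bp, 30.8% of the anti-recombinant and 33.2% of the anti-peptide ones had a peak of the other antibody. Within 10 kb, that is 10000 bp, these shares were 85.0 and 87.0%. The shares to be expected from the density of peaks alone were not computed.

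Spacing within a list hardly separated the classes. The gap to the nearest peak of the same list had a median of 2000 bp for single-antibody and 2000 bp for shared anti-recombinant peaks, and 33.5% of single-antibody and 32.5% of shared ones had a neighbour within 1 kb. In the anti-peptide list the median gap was 2600 bp for single-antibody and 2350 bp for shared peaks, and 28.3 and 29.3%, in that order, had a neighbour within 1 kb. Of these near neighbours, 72.1% were themselves shared for single-antibody and 74.1% for shared anti-recombinant peaks. The corresponding shares in the anti-peptide list were 81.3% for single-antibody and 83.5% for shared peaks. Single-antibody peaks were thus interspersed among shared ones at close to the share of the whole list. At equal list length the median gaps were 2250 bp for single-antibody and 2300 bp for shared anti-recombinant peaks, and 2550 bp for single-antibody and 2350 bp for shared anti-peptide peaks.

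Single-antibody and shared peaks followed the same profile along the chromosomes. The outer 20% of the length at both ends together held 68.9% of single-antibody and 68.8% of shared anti-recombinant peaks. In the anti-peptide list it held 69.1% of single-antibody and 68.8% of shared peaks. The central part, from 25 to 75% of the length, held 21.1% of single-antibody and 21.5% of shared anti-recombinant peaks, and 21.2% of single-antibody and 21.5% of shared anti-peptide peaks. Chromosome length was taken as the highest peak end in the 4 lists. At equal list length the outer parts held 69.0% of single-antibody and 68.8% of shared peaks in both lists. Over steps of 5% of the length, the share of anti-recombinant peaks that were shared ran from 72.8 to 76.1%, and that of anti-peptide peaks from 79.5 to 85.4%. The lowest anti-peptide values were in the steps from 55 to 60% (79.7%, 76.6 to 82.7) and from 60 to 65% (79.5%, 76.5 to 82.3), and the highest was in the step just before them, from 50 to 55% (85.4%, 82.3 to 88.2). The anti-recombinant values of these steps were 75.1, 72.8 and 73.2%, in the same order.

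All 20 chromosomes gave much the same picture. The share of anti-recombinant peaks with an anti-peptide peak was lowest on chromosome 16, at 71.5% (69.4 to 73.5), and highest on chromosome 11, at 76.6% (74.95 to 78.2). The share of anti-peptide peaks with an anti-recombinant peak was lowest on chromosome 4, at 80.4% (78.8 to 82.0), and highest on chromosome 18, at 84.0% (82.4 to 85.5). Chromosome 16 was lowest in one direction and, at 83.8%, second highest in the other. Among the scaffolds not placed on a chromosome, 212 of 276 anti-recombinant and 213 of 260 anti-peptide peaks were shared. Every chromosome held single-antibody peaks, from 553 to 1087 in the anti-recombinant list and from 268 to 593 in the anti-peptide list.

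**Figure D4:**
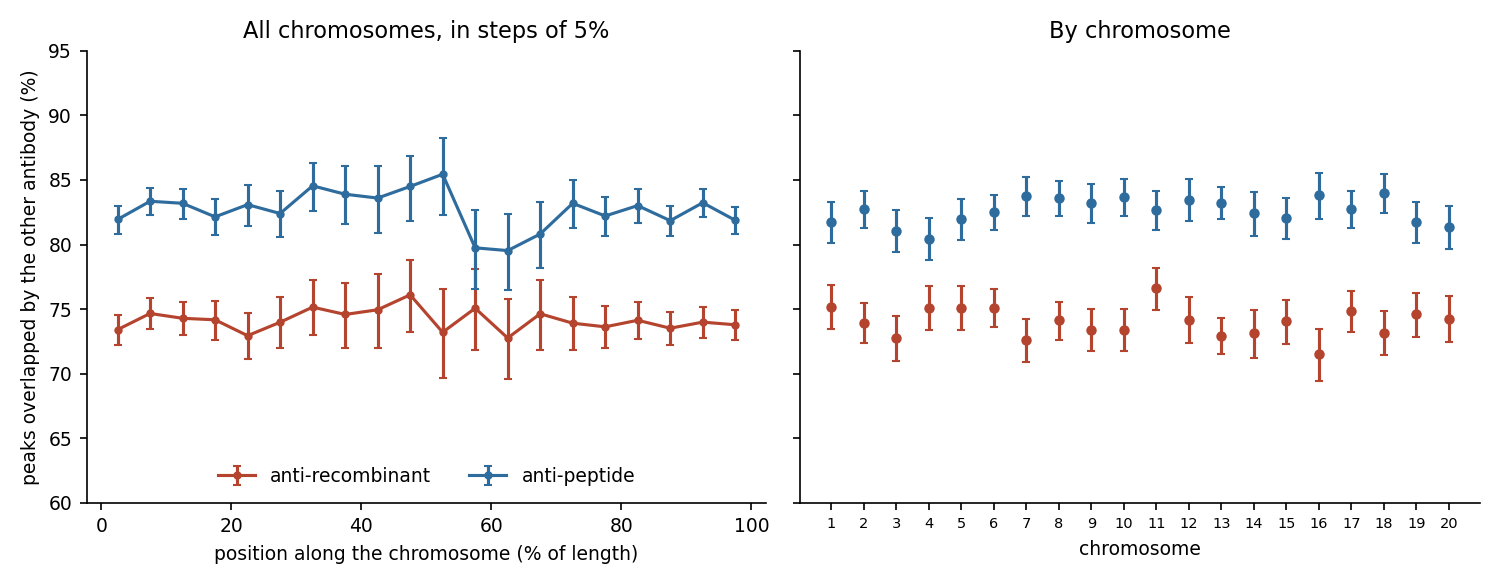
Percentage of peaks overlapped by the other antibody (y, axis from 60 to 95%) in steps of 5% of chromosome length over all chromosomes (left) and on each chromosome (right), with exact 95% intervals. Anti-recombinant peaks stay between 71.5 and 76.6% and anti-peptide peaks between 79.5 and 85.4%, at the ends as in the centre.

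The lists of the other stages, which the definition of shared peaks did not use, gave a further readout of each class. An MM peak overlapped 62.9% (62.1 to 63.7) of single-antibody and 95.3% (95.1 to 95.5) of shared anti-recombinant peaks, with 86.9% over the whole list. It overlapped 54.8% (53.7 to 55.8) of single-antibody and 95.3% (95.1 to 95.5) of shared anti-peptide peaks, with 88.3% over the whole list. A COT peak overlapped 39.8% (38.95 to 40.6) of single-antibody and 80.9% (80.6 to 81.3) of shared anti-recombinant peaks, with 70.2% over the whole list. For the anti-peptide list the COT shares were 39.4% (38.4 to 40.4) of single-antibody and 81.0% (80.6 to 81.3) of shared peaks, with 73.7% over the whole list. A COT or MM peak was found for 74.7% of the single-antibody anti-recombinant peaks (91.8% over the whole list) and for 68.6% of the single-antibody anti-peptide peaks (92.8% over the whole list). The COT and MM lists were made with the anti-recombinant antibody, so the anti-recombinant peaks share their reagent with this readout and the anti-peptide peaks do not; the part of this in the values was not tested. The order of the lists was not kept when all 4 lists were cut to their higher-scoring 50%. A COT or MM peak was then found for 71.0% of single-antibody anti-recombinant and 76.7% of single-antibody anti-peptide peaks. In that setting a partner, or a COT or MM peak, in the removed part of a list did not count. These values therefore do not describe the stronger single-antibody peaks of the whole lists.

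Among peaks of similar score the COT share was lower in single-antibody than in shared peaks. The MM share was lower from bin 3 of the anti-recombinant and bin 4 of the anti-peptide list onwards. The bins did not make widths equal. In bin 5 of either list the median was 300 bp for single-antibody and 350 bp for shared peaks. In bin 10 it was the same for both classes, at 100 bp in the anti-recombinant and 150 bp in the anti-peptide list. At the top the MM shares were at or near 100% in both classes: in bin 2 of the anti-recombinant list they were 100% of single-antibody and 99.98% of shared peaks, and in bin 3 of the anti-peptide list 100% (10 of 10) of single-antibody and 99.8% of shared peaks. In bin 5, MM peaks overlapped 88.2% of single-antibody and 97.7% of shared anti-recombinant peaks, and 92.6% of single-antibody and 98.3% of shared anti-peptide peaks. In bin 10 they overlapped 45.1% of single-antibody and 79.0% of shared anti-recombinant peaks, and 38.4% of single-antibody and 73.9% of shared anti-peptide peaks. For COT bin 10 had 28.4% of single-antibody and 52.7% of shared anti-recombinant peaks, and 29.4% of single-antibody and 50.6% of shared anti-peptide peaks. The COT share of the single-antibody peaks was the lower one in each bin that held both classes, though in bin 3 of the anti-peptide list it rested on 10 peaks and the intervals overlapped. Peaks that neither the other antibody nor another stage overlapped numbered 3626 in the anti-recombinant and 2701 in the anti-peptide list. These were 25.3 and 31.4% of the single-antibody peaks, in the same order. Of the shared peaks 2.15 and 2.18% had no COT or MM peak, and over the whole lists 8.17 and 7.25%.

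**Figure D5:**
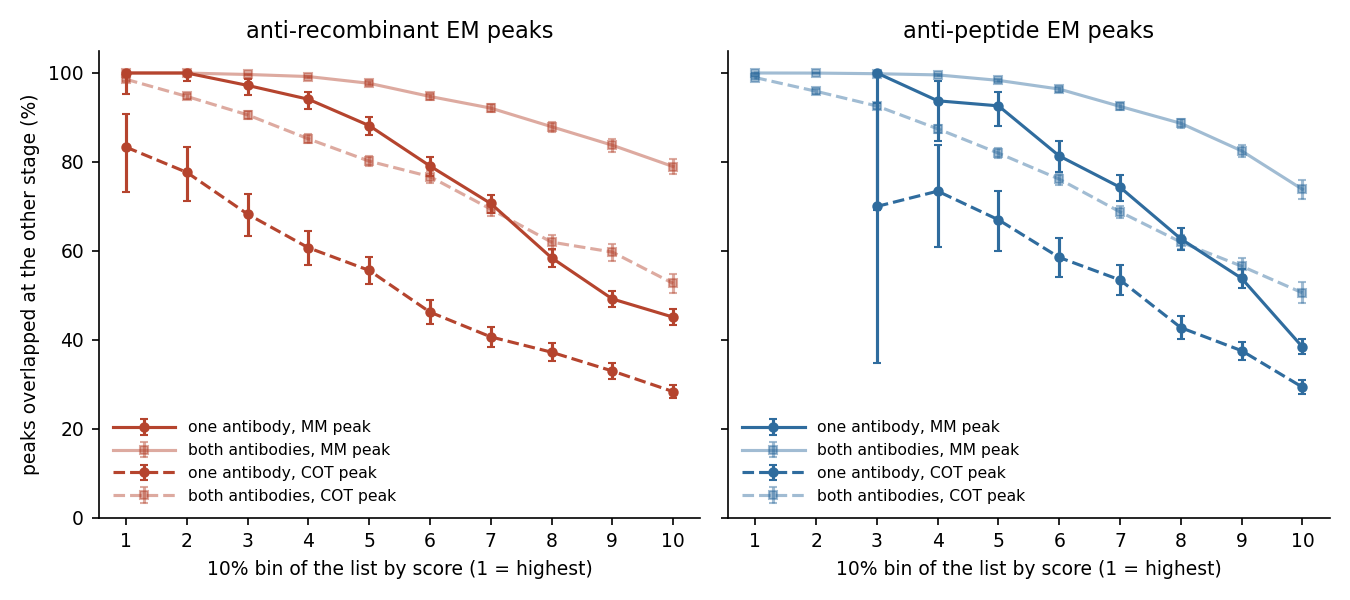
Percentage of EM peaks overlapped by an MM peak (solid) or a COT peak (dashed) by 10% bins of score, for single-antibody peaks (round, dark) and shared peaks (square, pale) of the anti-recombinant (left) and anti-peptide (right) lists, with exact 95% intervals. Bins 1 and 2 of the anti-peptide list hold no single-antibody peak, and in bin 10 the single-antibody peaks lie far below the shared ones at both stages.

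The 78 single-antibody peaks in bin 1 of the anti-recombinant list had no counterpart in the anti-peptide list, whose bin 1 held 0 such peaks. They had a median width of 450 bp (range 300 to 600 bp), against 550 bp for the shared peaks of that bin, and were spread over all 20 chromosomes, no more than 8 to a chromosome. Of the 78, 46 (59.0%) were in the outer parts of the chromosomes, against 68.3% of the shared peaks of that bin. This share rests on few peaks, and no interval was computed for it. Over the whole list the outer parts held 68.9% of single-antibody and 68.8% of shared anti-recombinant peaks. An MM peak overlapped 78 of them, and also 100% of the shared peaks of that bin. A COT peak overlapped 65 (83.3%, 73.2 to 90.8), against 98.6% of the shared peaks of that bin. The nearest anti-peptide peak was a median of 3175 bp away, and within 1 kb for 21 of them.

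The 5 highest-scoring of them were all well separated from any anti-peptide peak. The first, at 35881801 to 35882350 of chromosome 3, held place 413 and was 5550 bp from the nearest anti-peptide peak. The second, at 22212901 to 22213400 of chromosome 5, held place 508 and was 11850 bp from one. The peak on chromosome 6 at 46155151 to 46155650 was in place 636, with the nearest anti-peptide peak 8800 bp away, and took place 8616 at MM and 7803 at COT. The peak on chromosome 15 at 40699951 to 40700500 was in place 711, with 4350 bp to the nearest anti-peptide peak, and took place 5050 at MM and 26527 at COT. The peak at 34068101 to 34068600 of chromosome 3 held place 839 in the EM and 1628 in the MM list, was 3250 bp from an anti-peptide peak and was overlapped by no COT peak. All 5 were 500 or 550 bp wide.

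The 5 highest-scoring anti-peptide peaks without an anti-recombinant peak stood lower in their list, and 2 of them lay within 150 bp of one. The first, on chromosome 5 at 39719351 to 39719750, was in place 10744 and 1500 bp from an anti-recombinant peak. The second, on chromosome 9 at 4161801 to 4162150 (place 11346), was 150 bp from one. The third lay on scaffold_22 at 497851 to 498150 (place 12739), 40950 bp from the nearest anti-recombinant peak. The fourth, on chromosome 14 at 9629751 to 9630150 (place 12938), was 1850 bp from one. The fifth, on chromosome 10 at 7856301 to 7857050, was 750 bp wide, stood at place 13028 and was 50 bp from an anti-recombinant peak. All 5 were overlapped by an MM peak and 4 of them by a COT peak. They lay in bin 3 of their list, where nearly all peaks of both classes had an MM peak. A COT peak overlapped 70% of the 10 single-antibody and 92.6% of the shared peaks of that bin.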

How the data were processed

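ChIP and input libraries were made from soybean embryos, and the deposited files are 4 peak lists with a chromosome, start, end, name and score for each peak. Per the submitters' processing notes Bowtie 0.12.7 and SAMtools 0.1.19 were used. The peak caller, its threshold, the pooling of replicates and the scale of the score the authors deposited are not stated in any source used here. Ends were read as the last base, since all starts and widths are then multiples of 50 bp. Overlaps, gaps and score bins were computed in Python 3.11.15 with numpy 2.4.6, pandas 2.3.3 and scipy 1.17.1. Ties in score were ordered by chromosome and start. Overlap counting was checked on simulated peaks. No test between groups was made, because each antibody has 1 list; p-values are therefore absent. The sites named are, by rule, the 5 highest-scoring single-antibody peaks of each list, the 5 1-to-1 sites with the smallest sum and the 5 with the largest gap of places in each direction, the 3 widest peaks, and the chromosomes with the highest and lowest shares. The members, lists and rules were chosen with earlier results of these data known. Tried alternatives were other overlap rules, the end as deposited, equal list length, the higher-scoring 50% of all 4 lists, and chromosomes without scaffolds. Equal length by the authors' numbering, and the score groups within widths, were chosen after seeing the data. Sequence and gene annotation of the build were not used.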

Additional observations from a re-analysis of the deposited data

How the results depend on the processing

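No paired analysis was possible because each antibody has 1 list and no value per replicate, and for the same reason no replicate could be left out. Of 72 values recomputed for 9 results under 8 settings, 46 stayed within the interval of the reported value, and 26 moved outside it. The values below are given for the anti-recombinant before the anti-peptide list. Reciprocal overlap of at least 50% gave shares of 64.4 and 71.7%, and 63.3 and 57.3% of single-antibody peaks with a COT or MM peak. An overlap of at least 100 bp gave 72.5 and 80.9%, and 71.2 and 65.1% with a COT or MM peak. Midpoints within 100 bp gave 67.4 and 74.96%, and 71.1 and 67.03%. Equal list length gave 77.8 and 78.4%, and 79.4 and 72.7%. Equal length by the authors' numbering, added after seeing the data, gave 77.9 and 78.5%, and 79.6 and 72.7%. The higher-scoring 50% of all 4 lists gave shares of 73.1 and 81.5%, differences of median width, shared minus single-antibody, of 150 and 100 bp, and 71.0 and 76.7% of single-antibody peaks with a COT or MM peak, the opposite order to the whole lists; the cause was not tested. In that setting a partner, or a COT or MM peak, in the removed 50% of a list did not count. The end as deposited and the exclusion of scaffolds moved no value beyond its interval. The median offset was 25 bp under every setting. Each rule of overlap limits the offset, and the rule of midpoints within 100 bp caps it by definition. The percentage in the outer chromosome parts, single-antibody minus shared, ran from −0.468 to 0.609 in the anti-recombinant and from −0.445 to 0.844 in the anti-peptide list, with intervals that held 0 throughout. Unknown depth limits all comparisons of list length.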

Other observations

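Over the 1 Mb windows with at least 20 peaks, the share of peaks found with the other antibody varied more than over chromosomes. Windows hold far fewer peaks than chromosomes, so counting error alone gives them a wider spread, and variation beyond it was not tested. The share reached 95.7% over 597 windows of the anti-recombinant list, with a median of 74.1% and 10th and 90th percentiles of 66.0 and 80.8%. Over 571 windows of the anti-peptide list it ran from 61.9 to 97.5%, with a median of 83.04% and percentiles of 77.03 and 89.0%. The windows named here were chosen after their values were seen. The window at 8000001 to 9000000 of chromosome 16 was the second lowest in both lists, with 15 of 29 anti-recombinant and 15 of 22 anti-peptide peaks shared. Adjacent windows of chromosome 5 stood at opposite ends in different lists: 22 of 23 anti-recombinant peaks were shared at 26000001 to 27000000, and 13 of 21 anti-peptide peaks at 25000001 to 26000000. The lowest anti-recombinant window, at 14000001 to 15000000 of chromosome 12, had 14 of 28 peaks shared. With about 20 to 40 peaks a window, such extremes were not tested against counting error.

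The 1899 anti-peptide peaks that stood more than 10000 places earlier by score than by the authors' numbering had a median width of 250 bp and a median place of 24132. Of these, 92.8% were overlapped by an anti-recombinant peak, against 82.6% of the whole anti-peptide list. In bin 5 by score, which holds their median place, 95.9% of peaks were.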
